A study of Mus musculus with 4 samples.

Results

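The 36 genes described here encode enzymes and regulators of nucleotide and polyamine synthesis, out of 24421 genes in the deposited tables. They were chosen by name as enzymes and regulators of these routes, with earlier results of these data known, and fall into 10 genes of the polyamine and methionine cycle, 14 of purine synthesis and salvage, 4 of pyrimidine synthesis, 6 deoxynucleotide enzymes and 2 nucleoside diphosphate kinases. Their transcripts were measured in mouse cells on a C57/BL6 background, sorted for CD138 and against B220, the surface profile by which antibody-secreting plasma cells are taken, in 4 droplet single-cell libraries. The wild-type library came from the bone marrow of a control described as age-matched, with no disease. The other libraries, called VQ here, hold donor-derived cells that combine the V{kappa}*MYC transgene with Nras LSL Q61R/+ and IgG1-Cre, taken from recipients with multiple myeloma: 2 libraries from bone marrow (VQ marrow 1 and 2) and 1 from lymph node. The V{kappa}*MYC transgene places MYC under kappa light chain control, and the Nras allele needs recombination by Cre, here driven from the IgG1 locus, so both depend on the B cell lineage. The cells had been passed to recipients, and the labels state neither the ages nor whether the marrow libraries came from separate animals. Each p-value between groups therefore rests only on the spread between those 2 libraries, taken largely over all genes together. That spread may be technical.

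Purines and pyrimidines are built from phosphoribosyl pyrophosphate, amino acids and one-carbon units, or salvaged from free bases, and ribonucleotide reductase turns the resulting diphosphates into the deoxynucleotides used in DNA synthesis. Polyamines (putrescine, spermidine and spermine) are made from ornithine and decarboxylated S-adenosylmethionine, and their synthesis is held in check by antizyme, which sends ornithine decarboxylase to the proteasome. Many of these genes are known targets of MYC, which binds the E-box CACGTG together with MAX, whereas resting plasma cells of normal marrow do not divide.

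Cells were chosen by the share of their UMIs (counted transcript molecules) taken by Jchain, the joining chain of IgM and IgA. All wild-type cells with at least 5% Jchain were kept (106 of 163), as were all VQ cells with less than 5% (226 of 245 and 170 of 188 in marrow, 185 of 185 in lymph node). These 687 of 781 cells held 162471 UMIs without Jchain in the wild type, 1039024 and 441973 in VQ marrow and 799731 in VQ lymph node, and no barcode was shared between libraries. Median depth was 1647.5 UMIs per chosen wild-type cell and 2625.5 to 4682 per VQ cell. At least 2 plasma cell markers were found in 106 of 106 wild-type cells and in 214 of 226, 157 of 170 and 184 of 185 VQ cells. The wild-type cells held 7 Myc UMIs, against 1320, 646 and 1113 for the VQ cells in the order given. A neutrophil marker list of 12 genes, 11 of them in the tables, summed to 1027 and 2937 CPM (UMIs scaled to a common total, Jchain left out) in VQ marrow against 80.0 in the wild type and 16.3 in VQ lymph node. Only 4 cells in each VQ marrow library held at least 2 of those markers. Summed likewise, the 16 plasma cell markers stood at 29778 CPM in the wild type and at 13005, 13990 and 13783 in the VQ libraries. Single markers went both ways: Mzb1 was at 5976 against 45.2, 52.0 and 1362, and Fkbp11 at 252 against 635, 762 and 1048. A B cell precursor list of 12 genes summed to 1286 CPM for wild type against 457, 367 and 534 for VQ, most of it Cd79b, and 20 of 106 wild-type cells held at least 2 of its markers, against 3, 1 and 1 VQ cells. Vpreb3 had 21 UMIs and Ms4a1 15 in the wild type and at most 1 in each VQ library, Dntt had 5 and 0, and Rag2, Igll1 and Pax5 had 0 everywhere; the part of such cells in the differences below was not tested beyond a fit without cells holding at least 2 markers of another type.

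The E-box was looked up in RefSeq promoters (build GRCm38.p6, from 250 bases before to 50 bases after a transcription start), and the matches are shown because it is the motif of the MYC transgene's product. Of the 36 genes, 32 had a promoter in the table, and 6 of these (18.8%) held CACGTG, against 8.09% of the 27025 genes in that table. The palindrome reads the same on both strands, and a match is a description of the letters. The 6 were Impdh2, Atic, Paics, Tyms, Nme1 and Sms. The promoters of the 5 with enough UMIs to be tested are printed 5′ to 3′ along the gene, with the E-box in capitals.
Impdh2, chr9:108560186-108560485, plus strand: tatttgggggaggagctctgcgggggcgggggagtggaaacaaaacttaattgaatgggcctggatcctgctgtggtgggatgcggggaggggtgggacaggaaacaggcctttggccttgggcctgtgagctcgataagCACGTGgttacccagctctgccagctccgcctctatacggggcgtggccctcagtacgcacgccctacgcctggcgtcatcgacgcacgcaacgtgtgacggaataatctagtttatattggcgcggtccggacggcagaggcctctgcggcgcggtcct
Atic, chr1:71556906-71557205, plus strand: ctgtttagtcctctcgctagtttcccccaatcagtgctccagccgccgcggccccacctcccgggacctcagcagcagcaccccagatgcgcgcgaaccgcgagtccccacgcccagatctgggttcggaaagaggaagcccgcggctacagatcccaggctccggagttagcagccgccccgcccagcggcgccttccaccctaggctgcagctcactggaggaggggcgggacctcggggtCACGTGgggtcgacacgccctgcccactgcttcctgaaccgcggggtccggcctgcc
Paics, chr5:76951052-76951351, plus strand: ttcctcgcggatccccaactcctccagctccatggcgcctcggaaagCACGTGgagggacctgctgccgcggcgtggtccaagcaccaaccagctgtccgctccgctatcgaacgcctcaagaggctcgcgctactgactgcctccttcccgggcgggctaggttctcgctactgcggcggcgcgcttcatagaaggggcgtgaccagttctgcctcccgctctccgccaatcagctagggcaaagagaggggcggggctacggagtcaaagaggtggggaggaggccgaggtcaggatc
Tyms, chr5:30073576-30073875, minus strand: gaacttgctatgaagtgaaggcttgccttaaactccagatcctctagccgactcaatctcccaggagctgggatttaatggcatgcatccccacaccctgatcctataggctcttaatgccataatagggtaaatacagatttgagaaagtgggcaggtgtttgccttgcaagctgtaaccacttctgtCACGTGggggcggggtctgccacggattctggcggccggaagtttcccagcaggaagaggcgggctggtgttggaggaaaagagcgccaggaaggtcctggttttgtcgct
Nme1, chr11:93968223-93968522, minus strand: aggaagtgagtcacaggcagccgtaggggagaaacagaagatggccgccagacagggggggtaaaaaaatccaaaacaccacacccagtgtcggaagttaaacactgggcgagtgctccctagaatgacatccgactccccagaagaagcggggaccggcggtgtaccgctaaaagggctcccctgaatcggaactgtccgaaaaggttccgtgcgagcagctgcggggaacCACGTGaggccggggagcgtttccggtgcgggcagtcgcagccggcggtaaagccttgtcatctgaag
The E-box began 7 bases before the start of Atic, 18 before that of Nme1, 61 before that of Tyms, 110 before that of Impdh2 and 203 before that of Paics. Ppat and Paics lie head to head on chromosome 5, with RefSeq starts 276 bases apart. The looser motif CANNTG, of which CACGTG is one form, was found in 19 of the 32 (59.4%), against 75.0% of all genes in the table.

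In VQ marrow most of the genes stood above the wild type, with the highest log2 fold changes for Dctpp1, Rrm2 and Impdh2. Counts were summed per library without Jchain, scaled by TMM (trimmed mean of M-values, which lines up library composition) and compared with edgeR's quasi-likelihood test. A gene was called at a Benjamini-Hochberg adjusted p under 0.05 over all 8414 genes tested. A minimum on counts left 34 of the 36 genes. Sms, spermine synthase, had 2, 1, 1 and 0 UMIs in the wild type, VQ marrow 1, VQ marrow 2 and VQ lymph node. Amd1, S-adenosylmethionine decarboxylase, had 0 in every library, as did Amd2, a protein-coding copy of it. Sms has an annotated pseudogene copy, Sms-ps, which is not among the genes counted. How reads that match more than 1 copy were counted is not given in the sources used here. These low counts therefore do not show how far the genes are transcribed. In VQ marrow against wild type, 20 of the 34 were higher and 1 was lower, where 17.0% of all tested genes were higher and 12.3% lower. The median log2 fold change was 1.13 over the 34 genes and 0.19 over all tested genes. In VQ lymph node against the same wild-type library, 18 were higher and 2 lower, where the shares over all genes were 16.4% and 11.9%, and the medians were 1.20 and 0.17 (log2). Both comparisons share their wild-type library, so the calls of one are not separate evidence for the other.

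The size of these counts depended on the test and on the cells. DESeq2 called 4 genes higher (Srm, Impdh2, Rrm2 and Dctpp1) and 1 lower (Azin1) in each comparison with the wild type, where it called 8.63% and 8.88% of all genes with an adjusted p. In cells with no UMI of any of 45 cell cycle genes, no member was called. Only 5 members were testable there, with 49 wild-type and 10, 22 and 18 VQ cells left, and of 698 genes tested 2.72% were higher and 1.29% lower in VQ marrow. With every library thinned to the smallest, edgeR called no gene of the 4890 tested. A fit without cells holding at least 2 markers of another type left 57 wild-type and 88, 95 and 71 VQ cells. It called 10 and 12 members higher, where 12.6% and 11.4% of 5626 genes were higher. Among VQ cells the dendritic cell list (92, 48 and 96 cells) and the monocyte or macrophage list (77, 29 and 44) marked the most. Those lists rest mostly on Ctss, Cd68, Tcf4 and Bst2, which had UMIs in every library. Holding such markers therefore does not by itself show another cell type. The wild type kept 80525 UMIs in this fit, so its lost calls cannot be assigned to other cells. Setting aside DESeq2, the thinned sums and the cells without cycle gene UMIs, 8 of the 21 VQ marrow calls were kept in every other fit with a test (Srm, Azin1, Atic, Impdh2, Aprt, Rrm1, Rrm2 and Dctpp1), and 13 were lost in at least 1. In VQ lymph node 10 of 20 were kept, these 8 with Adsl and Ctps.

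**Figure D1:**
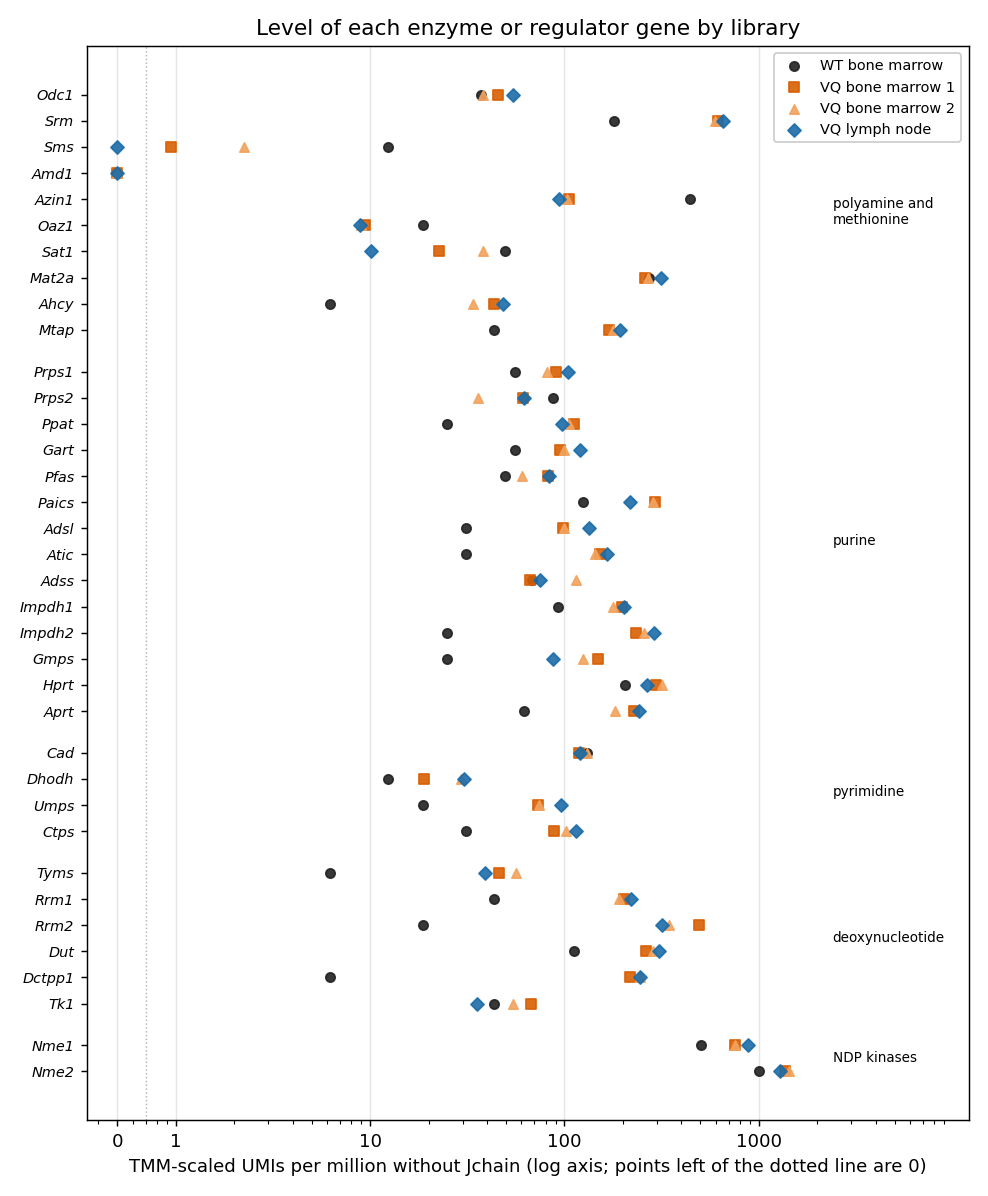
TMM-scaled CPM without Jchain (log axis, with 0 at the left edge) of the 36 genes in the wild-type marrow library, the VQ marrow libraries and the VQ lymph node library, 1 point per library. In 26 genes all 3 VQ libraries lie to the right of the wild type, and in 5 (Sms, Azin1, Oaz1, Sat1 and Prps2) all 3 lie to its left.

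All 3 VQ libraries exceeded the wild type for 26 genes, a pattern found in 47.1% of all tested genes, and lay below it for 5 (the untested Sms among them), a pattern found in 37.2%. The wild type lay within the VQ range for Mat2a, Adss, Cad and Tk1, as the plot of levels by library shows. Levels below are TMM-scaled CPM, in the order wild type, VQ marrow 1, VQ marrow 2 and VQ lymph node. Wild type and lymph node have 1 library each, and folds carry exact 95% intervals that cover counting error only. A sum per library cannot tell fewer cells with a transcript from less transcript per cell.

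In the polyamine branch calls went in both directions. Of 8 genes tested, 3 were higher (37.5%) and 1 lower (12.5%) in VQ marrow, where 17.0% and 12.3% of all tested genes were. In VQ lymph node 3 were higher (37.5%) and 2 lower (25.0%), where 16.4% and 11.9% of all tested genes were. The share lower in VQ marrow was thus near that of all genes. Srm, spermidine synthase, which adds an aminopropyl group to putrescine, lies at chr4:148591503-148594993 (GENCODE M21, GRCm38). It had 29, 655, 263 and 519 UMIs, or levels of 180, 619.6, 593 and 657. All VQ libraries stood by more than the SD of the marrow pair (18.9) above the wild type. Srm rose 3.40-fold in VQ marrow (interval 2.35 to 5.10; log2 fold change 1.75, SE 0.25; edgeR adjusted p = 8.97e-10) and 3.65-fold in VQ lymph node (2.51 to 5.51; edgeR adjusted p = 8.16e-10). Azin1, the antizyme inhibitor that frees ornithine decarboxylase from antizyme, lies at chr15:38487427-38519266 and went the other way. Its UMIs were 71, 112, 46 and 74, and its levels were 441, 106, 104 and 93.7. The 3 VQ libraries lay close together and below the wild type. Azin1 was 4.18-fold lower in VQ marrow (3.12 to 5.57; log2 fold change -2.07, SE 0.25; edgeR adjusted p = 2.92e-13) and 4.70-fold lower in VQ lymph node (3.35 to 6.60; edgeR adjusted p = 2.43e-12).

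Odc1, ornithine decarboxylase itself and a textbook MYC target, was not called. It had 6, 48, 17 and 43 UMIs and levels of 37.2, 45.4, 38.3 and 54.4, with a VQ marrow fold of 1.16 (0.507 to 3.29) and an edgeR adjusted p of 0.833. These few counts leave a difference of up to 3.29-fold within the interval. Oaz1, the antizyme that targets ornithine decarboxylase for degradation, had 3, 10, 4 and 7 UMIs and was not called. An annotated pseudogene copy, Oaz1-ps, had 0 UMIs in every library, and whether reads shared between the copies were counted is not given. Sat1, which acetylates spermidine and spermine for export and breakdown, had 8, 24, 17 and 8 UMIs and levels of 49.7, 22.7, 38.3 and 10.1. It fell in VQ lymph node (4.90-fold lower, 1.60 to 14.98; edgeR adjusted p = 0.0189, a call lost under 3 of the alternatives run) and missed the threshold in VQ marrow (1.82-fold lower, 0.736 to 3.93; edgeR adjusted p = 0.328). The direct difference between VQ lymph node and VQ marrow also missed it (edgeR adjusted p = 0.155). Of the VQ marrow Sat1 UMIs, 9 of 24 and 11 of 17 lay in cells with 0 or 1 cycle gene detected. There Sat1 stood at 247 and 364 CPM without TMM, against 47.7 in the wild type (6 UMIs) and 15.2 in lymph node (1 UMI). In cells with at least 2, it stood at 54.6 (wild type, 2 UMIs), 14.96 and 14.57 (VQ marrow) and 9.54 (lymph node). The part of these 25 and 35 marrow cells in the Sat1 levels was not tested.

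In the methionine cycle, which supplies and recycles the aminopropyl donor, Mtap and Ahcy rose and Mat2a did not pass. Mtap recycles the methylthioadenosine left by spermidine and spermine synthesis, and had 7, 179, 79 and 152 UMIs with levels of 43.5, 169, 178 and 192. It was 3.96-fold higher in VQ marrow (1.89 to 9.94; edgeR adjusted p = 0.000103) and 4.43-fold higher in VQ lymph node (2.10 to 11.2; edgeR adjusted p = 4.48e-05). Each Mtap call was lost under 3 alternatives. Ahcy hydrolyses S-adenosylhomocysteine and had 1, 46, 15 and 38 UMIs, with levels of 6.21, 43.5, 33.8 and 48.1. Both of its folds rest on 1 wild-type UMI: 6.55 in VQ marrow (1.13 to 263; edgeR adjusted p = 0.037) and 7.75 in VQ lymph node (1.31 to 314; edgeR adjusted p = 0.0209). Each call was lost under 5 of the alternatives run. Mat2a, which makes S-adenosylmethionine, had levels of 273, 260.2, 268 and 314, and the wild type lay inside the VQ range.

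In the purine branch 8 of 14 genes were higher in VQ marrow and 7 in VQ lymph node, and none was lower. Ppat catalyses the first committed step and had 4, 118, 47 and 77 UMIs, with levels of 24.8, 112, 106 and 97.5. It was 4.43-fold higher in VQ marrow (1.70 to 16.4; edgeR adjusted p = 0.00123) and 3.93-fold higher in VQ lymph node (1.47 to 14.8; edgeR adjusted p = 0.00599), calls lost under 4 and 5 alternatives. Paics, its head-to-head neighbour, carries out later ring-building steps and had 20, 310, 126 and 172 UMIs, with levels of 124, 293, 284 and 218. Paics rose 2.34-fold in VQ marrow (1.497 to 3.87; edgeR adjusted p = 0.00079, a call lost under 5 alternatives) and missed the threshold in VQ lymph node at 1.75-fold (1.10 to 2.94; edgeR adjusted p = 0.0572). The annotated Ppat and Paics genes overlap on opposite strands, and whether counting used the strand is not given in the sources used here.

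Adsl and Atic act near the end of the route to inosine monophosphate, and both stood higher in every VQ library. Adsl, which also acts in the branch to adenine nucleotides, had 5, 104, 44 and 106 UMIs and levels of 31.0, 98.4, 99.2 and 134. Its folds were 3.18 in VQ marrow (1.33 to 9.93; edgeR adjusted p = 0.0105) and 4.33 in VQ lymph node (1.80 to 13.6; edgeR adjusted p = 0.000688). The Adsl calls were lost under 3 and 2 alternatives. Atic, whose promoter is printed above, closes the ring and had 5, 161, 64 and 131 UMIs, with levels of 31.0, 152, 144 and 166. It was 4.83-fold higher in VQ marrow (2.04 to 15.02; edgeR adjusted p = 8.19e-05) and 5.34-fold higher in VQ lymph node (2.23 to 16.7; edgeR adjusted p = 3.86e-05).

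On the way from inosine to guanosine monophosphate, Impdh2, Impdh1 and Gmps were each called higher. Impdh2, the IMP dehydrogenase isoform of dividing cells, sets the pace of guanine nucleotide synthesis and lies at chr9:108560286-108565584. It had 4, 246, 114 and 228 UMIs and levels of 24.8, 233, 257 and 289. It showed the largest purine difference, 9.66-fold in VQ marrow (3.74 to 35.7; log2 fold change 3.28, SE 0.48; edgeR adjusted p = 1.2e-09) and 11.6-fold in VQ lymph node (4.48 to 43.0; edgeR adjusted p = 1.19e-10). Impdh1, the other isoform, also rose, with 15, 210, 79 and 161 UMIs and levels of 93.1, 199, 178 and 204. Its folds were 2.07 (1.23 to 3.74; edgeR adjusted p = 0.0172) and 2.19 (1.29 to 4.003; edgeR adjusted p = 0.0122), calls lost under 5 and 4 alternatives, and the difference between the isoforms was not tested. Gmps, which turns xanthosine monophosphate into guanosine monophosphate, had 4, 158, 55 and 69 UMIs and levels of 24.8, 149.5, 124 and 87.4. It was 5.72-fold higher in VQ marrow (2.20 to 21.2; edgeR adjusted p = 5.63e-05) and 3.52-fold higher in VQ lymph node (1.31 to 13.3; edgeR adjusted p = 0.0145), calls lost under 3 and 5 alternatives. Guk1, the guanylate kinase of the next step, is not among the 36 and fell, from 192 to 83.2, 85.7 and 101 (edgeR adjusted p = 0.00186 in VQ marrow and 0.0272 in VQ lymph node); it was named after its values were seen. Impdh2 overlaps Ndufaf3 on the opposite strand, and Ndufaf3 had 5, 39, 18 and 22 UMIs.

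Of the salvage enzymes, Aprt rose and Hprt did not pass. Aprt, which reclaims adenine, a by-product of polyamine synthesis, had 10, 242, 81 and 191 UMIs and levels of 62.1, 229, 183 and 242. Its folds were 3.47 in VQ marrow (1.86 to 7.30; edgeR adjusted p = 9.79e-05) and 3.896 in VQ lymph node (2.07 to 8.26; edgeR adjusted p = 2.3e-05). Hprt, which reclaims hypoxanthine and guanine, had levels of 205, 296, 318 and 265 (edgeR adjusted p = 0.0952 in VQ marrow and 0.359 in VQ lymph node). The remaining purine genes missed the threshold in both comparisons. They are Prps1 and Prps2, which make phosphoribosyl pyrophosphate, Gart and Pfas of the ring-building route, and Adss of the adenine branch. Their log2 fold changes ran from -0.72 (Prps2) to 0.78 (Gart) in VQ marrow and from -0.49 (Prps2) to 1.10 (Gart, edgeR adjusted p = 0.0562) in VQ lymph node.

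**Figure D2:**
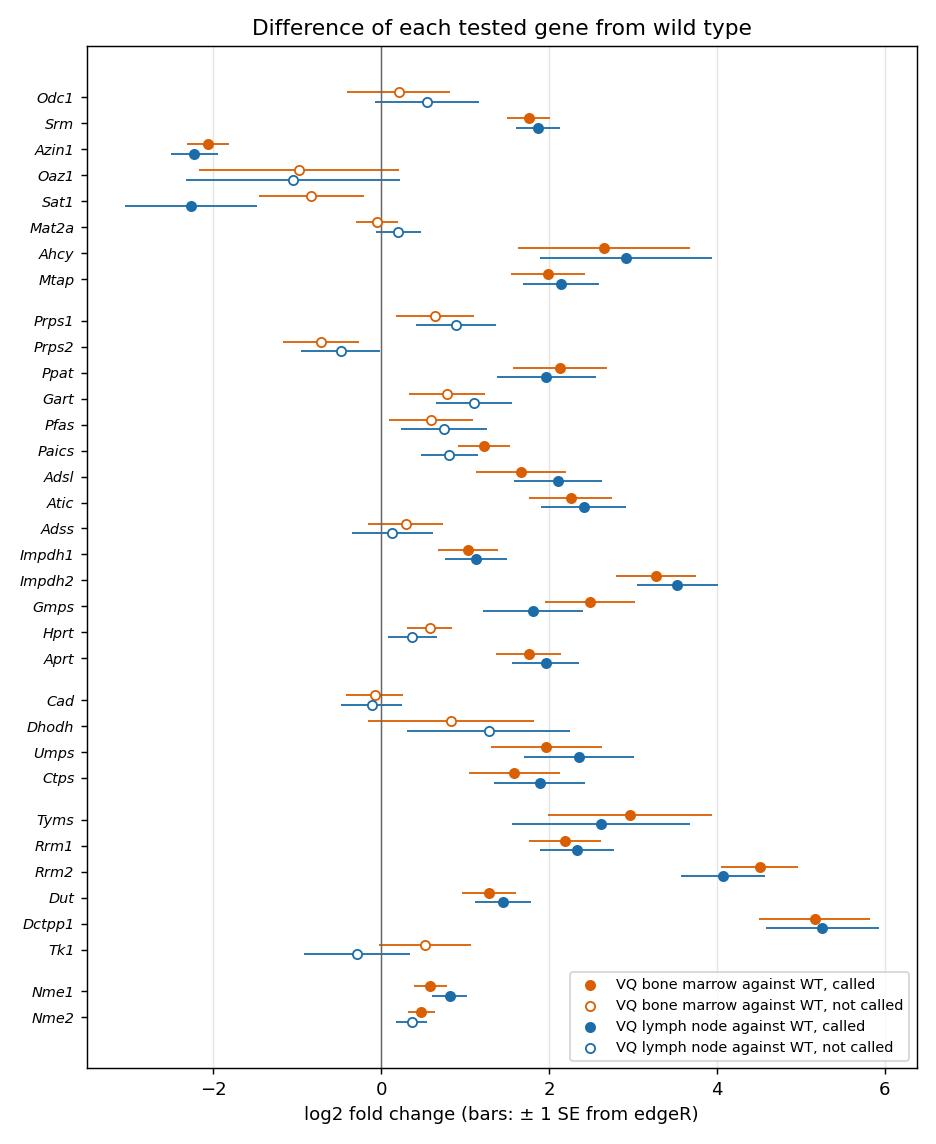
Log2 fold change of the 34 tested genes in VQ marrow and in VQ lymph node against the same wild-type marrow library, with bars of 1 SE from edgeR; filled points were called and open points were not. The deoxynucleotide enzymes Dctpp1 and Rrm2 lie furthest to the right at 5.16 and 4.51 in VQ marrow, and Azin1 furthest to the left of the genes called in both, at -2.07.

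In pyrimidine synthesis the late enzymes rose and the first did not pass. Cad, the enzyme that carries out the opening steps and a classical MYC target, had 21, 126, 58 and 95 UMIs. Its levels were 130.3, 119, 131 and 120.3, with the wild type inside the VQ range. The folds were 0.941 in VQ marrow (0.598 to 1.56; edgeR adjusted p = 0.893) and 0.923 in VQ lymph node (0.571 to 1.56), so a rise above 1.56-fold lies outside the counting interval. Umps, which makes uridine monophosphate, had 3, 77, 33 and 76 UMIs and levels of 18.6, 72.8, 74.4 and 96.2. It was 3.94-fold higher in VQ marrow (1.31 to 19.4; edgeR adjusted p = 0.0148) and 5.17-fold higher in VQ lymph node (1.70 to 25.6; edgeR adjusted p = 0.00245). Ctps, which makes CTP from UTP, had 5, 94, 45 and 91 UMIs and levels of 31.0, 88.9, 102 and 115. Its folds were 2.98 (1.25 to 9.34; edgeR adjusted p = 0.0181) and 3.71 (1.53 to 11.7; edgeR adjusted p = 0.0038). The Umps calls were lost under 4 alternatives in VQ marrow and 3 in VQ lymph node, and those of Ctps under 5 and 2. Dhodh, the mitochondrial step, had 2, 20, 13 and 24 UMIs and was not called.

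Of the deoxynucleotide enzymes 5 of 6 (83.3%) were higher in each comparison with the wild type, and none was lower. Of all tested genes 17.0% were higher in VQ marrow and 16.4% in VQ lymph node. Rrm2, the small subunit of ribonucleotide reductase that is made in S phase, lies at chr12:24708241-24714146 and had 3, 520, 154 and 250 UMIs. Its levels were 18.6, 492, 347 and 317, with the marrow pair at 419.6 ± 102 (SD, n = 2). Rrm2 rose 24.1-fold in VQ marrow (8.22 to 117; log2 fold change 4.51, SE 0.46; edgeR adjusted p = 9.29e-18) and 17.0-fold in VQ lymph node (5.75 to 83.0; edgeR adjusted p = 1.03e-12). Rrm1, the large subunit, had 7, 215, 85 and 174 UMIs and levels of 43.5, 203, 192 and 220.3. It was 4.60-fold higher in VQ marrow (2.21 to 11.5; edgeR adjusted p = 9.46e-06) and 5.07-fold higher in VQ lymph node (2.41 to 12.8; edgeR adjusted p = 4.45e-06).

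Dctpp1, which hydrolyses dCTP and its modified forms and so guards the nucleotide pool, lies at chr7:127256959-127260709. It had 1, 231, 109 and 193 UMIs, with levels of 6.21, 219, 246 and 244. No other of the 36 genes had a larger log2 fold change: 5.16 in VQ marrow (SE 0.66; 36.5-fold, 6.51 to 1446; edgeR adjusted p = 5.49e-12) and 5.25 in VQ lymph node (SE 0.67; 39.4-fold, 6.98 to 1563; edgeR adjusted p = 7.39e-12). The upper bounds are wide because 1 UMI sets the wild-type level. Tyms, thymidylate synthase, had 1, 49, 25 and 31 UMIs and levels of 6.21, 46.4, 56.4 and 39.2. Its folds were 7.95 in VQ marrow (1.38 to 318; edgeR adjusted p = 0.013) and 6.32 in VQ lymph node (1.05 to 258; edgeR adjusted p = 0.0495), the second lost under 7 of the alternatives run. Dut, which removes dUTP and so supplies the substrate of Tyms, had 18, 277, 127 and 241 UMIs and levels of 112, 262, 286 and 305. It rose 2.41-fold (1.505 to 4.11; edgeR adjusted p = 0.000611) and 2.73-fold (1.69 to 4.69; edgeR adjusted p = 0.000199). Each Dut call was lost under 3 alternatives, and the VQ marrow call of Tyms under 2. Tk1, the thymidine salvage kinase of S phase, was not called, with 7, 71, 24 and 28 UMIs and levels of 43.5, 67.2, 54.1 and 35.5.

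Nme1 and Nme2, nucleoside diphosphate kinases that pass phosphate between nucleotides, had the smallest differences among the genes called higher. Nme1 had 81, 796, 333 and 698 UMIs and levels of 503, 753, 751 and 884. It was 1.497-fold higher in VQ marrow (1.19 to 1.90; edgeR adjusted p = 0.0156) and 1.76-fold higher in VQ lymph node (1.40 to 2.24; edgeR adjusted p = 0.00123). The Nme1 calls were lost under 5 and 4 alternatives. Nme2 had 162, 1447, 635 and 1019 UMIs and levels of 1005, 1369, 1432 and 1290. It was 1.38-fold higher in VQ marrow (1.18 to 1.63; edgeR adjusted p = 0.0172) and missed the threshold in VQ lymph node (1.28-fold, 1.09 to 1.52; edgeR adjusted p = 0.126). The VQ marrow call of Nme2 was lost under 4 alternatives, and its direction turned in cells without cycle gene UMIs. Nme1 and Nme2 are neighbours on chromosome 11 with an annotated readthrough transcript, Gm20390, so reads shared between them make the split of counts uncertain.

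Between VQ lymph node and VQ marrow none of the tested genes passed. With edgeR 0 of the 34 tested were called, against 1.76% of all genes higher and 1.24% lower, 6 had an unadjusted p under 0.05, and DESeq2 also called 0. The smallest adjusted p was that of Gmps, at 87.4 in VQ lymph node and 137 ± 18.01 (SD, n = 2) in VQ marrow (log2 fold change -0.68, SE 0.23; edgeR adjusted p = 0.0855). Rrm2 was at 317 against 419.6 ± 102 (SD, n = 2), a log2 fold change of -0.44 (edgeR adjusted p = 0.216). The other log2 fold changes ran from -1.44 (Sat1) to 0.45 (Dhodh), and a p that misses the threshold does not show that the tissues are alike.

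Summed by branch, the levels differed most from the wild type in the deoxynucleotide enzymes. Their sum was 229.6 against 1289, 1181 and 1161, 5.48-fold higher in marrow (3.96 to 7.80) and 5.06-fold in lymph node (3.64 to 7.23). The purine sum was 937 against 2157, 2085 and 2146, a fold of 2.28 in marrow (1.94 to 2.70). The pyrimidine sum was 192 against 299.9, 336 and 362, a fold of 1.61 in marrow (1.12 to 2.40). The nucleoside diphosphate kinase sum was 1508 against 2122, 2182 and 2174, 1.42-fold (1.25 to 1.62). The polyamine and methionine sum was nearest the wild type, 1061 against 1277, 1265 and 1379, or 1.20-fold (1.03 to 1.41); it holds both Srm, called higher, and Azin1, called lower.

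Shares of cells with a UMI also differed most for the deoxynucleotide enzymes once every cell was thinned to 1000 UMIs, which left out 24 wild-type and 22, 33 and 14 VQ cells. A deoxynucleotide enzyme was found in 13.4% of wild-type cells (exact 95% interval 6.89 to 22.7) and in 59.8%, 66.4% and 54.4% of VQ cells, and unthinned in 23.6%, 84.5%, 76.5% and 85.4%. A purine gene was found in 58.5% of thinned wild-type cells (47.1 to 69.3) and in 88.2%, 86.9% and 86.0% of VQ cells, and unthinned in 72.6%, 94.7%, 89.4% and 95.7%. A pyrimidine gene was found in 19.5% (11.6 to 29.7) against 24.0%, 25.5% and 27.5%, shares whose intervals overlap that of the wild type. Unthinned, the pyrimidine shares were 24.5% (16.7 to 33.8) against 61.1%, 50.6% and 63.8%, with intervals that do not overlap that of the wild type, at the higher depth of the VQ cells. Srm was found in 15.9% of thinned wild-type cells (8.72 to 25.6) and in 45.6%, 42.3% and 43.9% of VQ cells. Azin1 went the other way here too, with 32.9% (22.9 to 44.2) against 10.8%, 8.03% and 5.85%. Dctpp1 was found in 0 of 82 thinned wild-type cells and in 15.7%, 18.2% and 19.9% of VQ cells. For 0 of 82 the exact 95% interval of cells with a UMI at that depth reaches 4.40%, and a floor of 3 counts stands at 3.66%. Unthinned, 1 of 106 wild-type cells held a Dctpp1 UMI, so the 0 limits detection and not expression. No cell type in these libraries could serve as one that lacks the enzymes, so no background share is given.

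Cells with cycle gene transcripts took a larger share of the VQ libraries, and the deoxynucleotide sum was higher in such cells in each VQ library. At least 2 of 45 cycle genes, none of them a member, were detected in 17 of 106 wild-type cells and in 201 of 226, 135 of 170 and 156 of 185 VQ cells. After thinning to 1000 UMIs the shares were 10.98% (wild type) and 82.4%, 84.7% and 72.5% (VQ). Deoxynucleotide enzymes stood at 1346, 1239 and 1213 CPM in VQ cells with at least 2 cycle genes and at 357, 464 and 409 in VQ cells with fewer, ratios of 3.77, 2.67 and 2.96. In wild-type cells they stood at 300.5 and 207 (11 and 26 UMIs). With 3 or more cycle genes set against 0, the wild type went the other way, at 161 and 237 (1 and 15 UMIs). The VQ libraries kept their direction there. The other branches were also higher in such cells in each VQ library, at smaller ratios. In VQ marrow 1, VQ marrow 2 and VQ lymph node these were 1.44, 1.67 and 1.42 for purine genes. They were 1.71, 1.17 and 1.33 for the polyamine and methionine cycle, and 1.88, 1.75 and 1.34 for pyrimidine synthesis. The nucleoside diphosphate kinases were closest in VQ marrow 2, at 2198 and 2086. In the wild type the purine ratio was 1.55, while the pyrimidine sum went the other way, at 109 and 215 (4 and 27 UMIs). Rrm2 had 520, 151 and 245 UMIs in the VQ cells with at least 2 cycle genes and 0, 3 and 5 in the rest. These are values per library, with no test, since cells are not replicates.

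**Figure D3:**
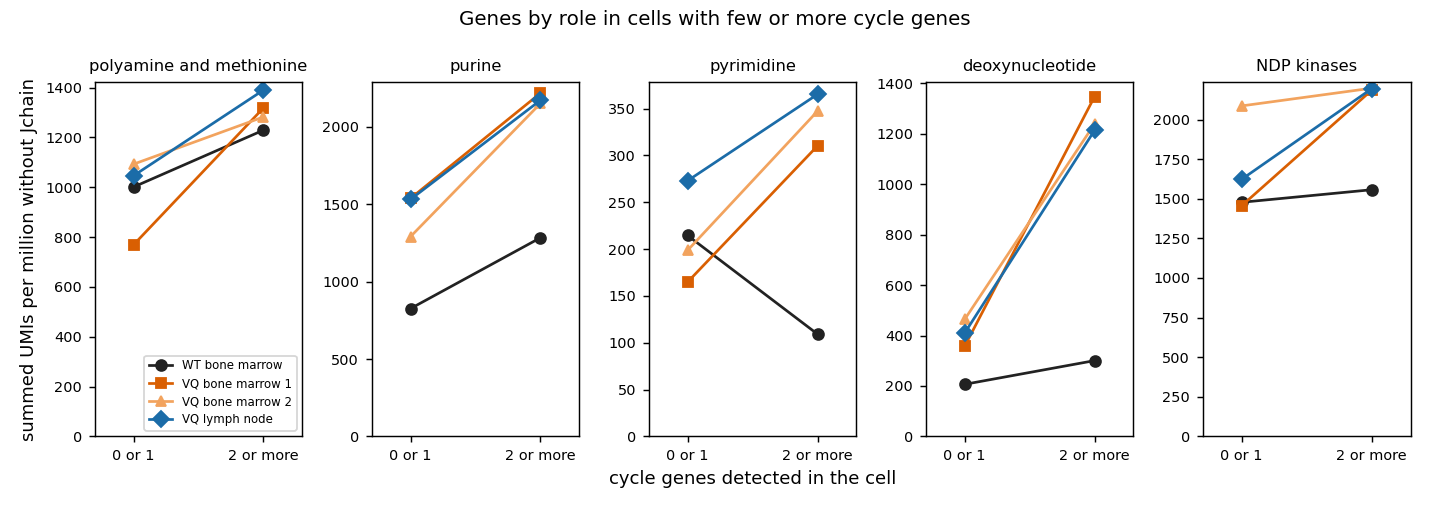
Summed CPM without Jchain of each branch (1 panel each) in chosen cells with 0 or 1 cycle gene detected and in those with 2 or more, 1 line per library. Deoxynucleotide enzymes rise from between 357 and 464 to between 1213 and 1346 in the VQ libraries, while the wild-type line goes from 207 to 300.5.

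Purine genes stood above the wild type on both sides of that split. In cells with fewer than 2 cycle genes their sum was 826 CPM for the wild type against 1538, 1291 and 1532. Dctpp1 was at 7.95 (1 UMI) in such wild-type cells and at 137, 166 and 197 (5, 5 and 13 UMIs) in such VQ cells. Srm was at 135 in the wild type and at 165, 199 and 516, so the 2 marrow libraries lay near the wild type and the lymph node library above it. The VQ values rest on 25, 35 and 29 cells with 36401, 30199 and 65941 UMIs. VQ cells with at least 2 cycle genes, 201, 135 and 156 of them, held 1002623, 411774 and 733790 UMIs. The split used unthinned counts, so it also parts deeper from shallower cells, and the part of depth was not tested. In cells with no cycle gene UMI at all, Srm had 8 wild-type UMIs and 0, 2 and 15 VQ UMIs, and edgeR's log2 fold change in VQ marrow turned to -0.747 (adjusted p = 0.962). How far the share of cycling cells bears on the differences between groups was not tested.

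Within VQ marrow the few Jchain-high cells, left out above, had lower purine and deoxynucleotide sums than the Jchain-low cells, on few UMIs. This comparison was chosen after seeing the data and sets 226 and 170 Jchain-low cells against 19 and 18 Jchain-high cells of the same libraries, with the library as a block. The high cells held 17081 and 10597 UMIs without Jchain. Purine genes summed to 644 and 849 CPM in the Jchain-high cells (11 and 9 UMIs), 2194 and 2093 in the Jchain-low cells and 929 in the wild type. Deoxynucleotide enzymes summed to 351 and 189, 1312 and 1186, and 228 in the same order. Their Jchain-high sums rest on 6 and 2 UMIs, too few to place them against the wild type. Over all genes tested in this comparison the median log2 fold change was 0.73 toward the Jchain-low cells, and over the tested members it was 1.74. The pooled ratios of low to high cells were 3.00 (1.94 to 4.91) for purine genes and 4.41 (2.23 to 10.2) for deoxynucleotide enzymes. Ratios and floors of low over high cells, here and in the next paragraph, use pooled totals without TMM. The edgeR p-values beside them come from a TMM-scaled fit with factors of 0.83 to 1.363.

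**Figure D4:**
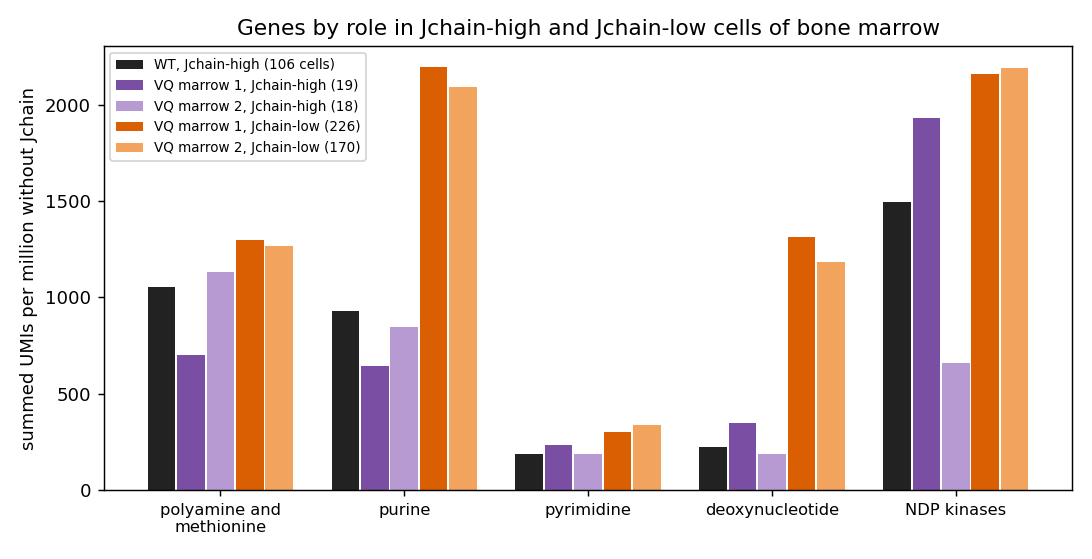
Summed CPM without Jchain of each branch in Jchain-high cells of wild-type marrow and in Jchain-high and Jchain-low cells of each VQ marrow library, 1 bar per sum, with cell numbers in the key. Purine bars reach 2194 and 2093 in Jchain-low cells and 644 and 849 in Jchain-high cells of VQ marrow, beside 929 in the wild type.

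With edgeR 5 of 31 tested members were higher in the Jchain-low cells (Srm, Aprt, Rrm2, Dctpp1 and Nme2) and 0 were lower, where 3.56% of all genes tested there were higher and 1.82% lower (5.39% in all). Srm had 655 and 263 UMIs in the Jchain-low cells and 1 and 0 in the Jchain-high cells, a pooled ratio of 17.2 (3.07 to 678; edgeR adjusted p = 9.53e-06). Rrm2 had 520 and 154 against 1 and 0 (ratio 12.6, 2.25 to 498; edgeR adjusted p = 0.000731). Dctpp1 had 231 and 109 against 0 and 0, at least 2.12-fold higher over a floor of 3 UMIs for the high cells of both libraries (edgeR adjusted p = 0.0108). Aprt likewise had 242 and 81 against 0 and 0, at least 2.01-fold higher (edgeR adjusted p = 0.0213). Azin1 had 4 and 6 UMIs in the Jchain-high cells, or 234 and 566 CPM against 108 and 104 in the Jchain-low cells, and was not called (edgeR adjusted p = 0.355). The Jchain-high sums are small, and a total this low limits which genes could pass.

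A wider list covered neighbouring steps, transporters and one-carbon supply. Of 93 other genes of these pathways, 67 were tested, with 21 higher (31.3%) and 11 lower (16.4%) in VQ marrow, where 17.0% and 12.3% of all genes were. In VQ lymph node 22 were higher (32.8%) and 11 lower (16.4%), where 16.4% and 11.9% of all genes were. Folate and serine one-carbon genes, which supply carbon units for purines and thymidylate, had 8 higher and 1 lower of 14 in each comparison. Shmt1, the cytosolic serine hydroxymethyltransferase, had 0, 137, 51 and 118 UMIs, at least 6.73-fold higher in VQ marrow over a floor of 3 UMIs in the wild type. Slc19a1, the reduced folate carrier, had 3, 121, 47 and 132 UMIs (6.01-fold, 2.02 to 29.5). Ggh, which trims folate polyglutamates, fell, with levels of 86.9, 33.1, 36.1 and 24.1.

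Among other purine genes in VQ marrow, 3 of 21 were higher (14.3%, below the 17.0% of all genes). There 5 were lower (23.8%, where 12.3% of all genes were). In VQ lymph node 5 were higher and 5 lower (23.8% each), where 16.4% and 11.9% of all genes were. Adk, adenosine kinase, fell from 409.6 in the wild type to 86.1, 90.2 and 88.6, or 4.69-fold in VQ marrow (3.44 to 6.36; edgeR adjusted p = 3.85e-14). Dguok, the mitochondrial deoxyguanosine kinase, fell from 105 to 10.4, 9.02 and 12.7. Adssl1, the muscle-type adenylosuccinate synthase, fell from 124 to 21.8, 11.3 and 17.7. Ak6, a nuclear nucleotide kinase, rose from 37.2 to 121, 133 and 139 (3.35-fold in VQ marrow, 1.51 to 9.24; edgeR adjusted p = 0.00249). Slc29a1, a nucleoside transporter, had 0, 149, 73 and 120 UMIs, at least 7.95-fold higher in VQ marrow.

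Other pyrimidine and deoxynucleotide genes had 5 higher (33.3%) and 3 lower (20.0%) of 15 in each comparison. Of all tested genes 17.0% and 12.3% were in VQ marrow, and 16.4% and 11.9% in VQ lymph node. Dctd, dCMP deaminase, had 1, 123, 55 and 91 UMIs (19.1-fold in VQ marrow, 3.39 to 759), and Dtymk, thymidylate kinase, had 7, 373, 192 and 235 (8.67-fold, 4.18 to 21.7). Both act on the route to thymidine nucleotides. Nme4, the mitochondrial diphosphate kinase, had 0, 49, 16 and 35 UMIs, at least 2.33-fold higher in VQ marrow. Cmpk1, Nme3 and Uckl1 fell, Cmpk1 from 596 to 245, 264 and 229.

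Other polyamine and methionine genes had 5 higher (29.4%) and 2 lower (11.8%) of 17 in VQ marrow, where 17.0% and 12.3% of all tested genes were. In VQ lymph node 4 were higher (23.5%) and 2 lower (11.8%), where 16.4% and 11.9% of all tested genes were. Their lower shares were thus near those of all genes. Atp13a3, a polyamine transporter, had levels of 49.7, 190.1, 194 and 161 and rose. Dohh, which completes the spermidine-derived hypusine on eIF5A, rose from 37.2 to 95.5, 106 and 120.3. Ahcyl2 and Mat2b, relatives or partners of Ahcy and Mat2a, fell, with log2 fold changes of -2.33 and -1.003 in VQ marrow. Arg1, which makes ornithine from arginine, had 0 wild-type UMIs and 267, 91 and 25 VQ UMIs, at least 12.8-fold higher in VQ marrow and at least 1.70-fold in VQ lymph node. It was 7.54-fold lower in VQ lymph node than in VQ marrow (5.02 to 11.8; log2 fold change -2.88; edgeR adjusted p = 1.81e-19), the sole gene of these lists called between the 2 sites. Arg1 is also expressed by myeloid cells, and the neutrophil list stood higher in VQ marrow than in VQ lymph node, as given above; its part in the Arg1 difference was not tested.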

How the data were processed

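The deposited tables hold raw UMI counts per cell and gene from ddSEQ droplets and SureCell 3′ libraries, per the labels' protocols, for barcodes past the authors' knee filter, per the file names. Reads were placed on mm10, as the submitters' processing notes name it. The aligner, the counting tool and its use of strand are not given in the sources used here. Members and gene lists were chosen with earlier results of these data known. Chosen cells were summed per library without Jchain. The fit used edgeR 4.0.16 (R 4.3.3) with TMM, filterByExpr, a quasi-likelihood test on 3 group means and 4 libraries, and Benjamini-Hochberg adjustment over 8414 genes. Its single residual degree of freedom comes from the VQ marrow pair. The same spread is assumed for the single libraries (common biological coefficient of variation 0.0926). The spread shared over genes carried 278 prior degrees of freedom, so a gene's own difference within the pair had little weight in its p-value. Chi-square per degree of freedom between the counts of the VQ marrow pair was 1.57 over 9020 genes, so these are not 1 library deposited again. The code was tested on simulated counts. DESeq2 1.42.0 and the other alternatives are described in the closing section. Members called in either comparison with the wild type, at most 8 per branch by size, and all called lower were named with full values; other pathway genes were named up to 3 per list and direction, called in both. Some genes under that rule are not reported here. Coordinates come from GENCODE M21 (GRCm38). Intervals are exact 95%, and intervals and floors (3 UMIs) cover counting error only. Doublets were not called.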

Additional observations from a re-analysis of the deposited data

How the results depend on the processing

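Members called higher and lower in VQ marrow and in VQ lymph node against wild type (20 and 1, and 18 and 2) came to 4 and 1 in both with DESeq2, for which the cause was not tested. They came to 0 and 0 in both in cells with no cycle gene UMI, where 5 members were testable, and to 0 and 0 in both with sums thinned to the smallest library, where 30 were; both settings hold fewer UMIs. With a preset coefficient of variation of 0.2, 12 were higher in VQ marrow and 12 in lymph node, where 10.8% and 9.70% of all genes were. Leaving out cells with markers of other types gave 10 higher in VQ marrow, and 12 higher and 1 lower in lymph node. Of all genes, 12.6% were higher in VQ marrow, and 11.4% higher and 7.79% lower in lymph node. All cells gave 14 higher and 3 lower in both (in VQ marrow Sat1 and Prps2 beside Azin1). Of all genes, 17.1% were higher and 15.2% lower there in VQ marrow. In lymph node 1442 of 8686 were higher (16.6%) and 1302 lower. The VQ libraries as 1 group gave 1 lower for lymph node, where 9.92% of all genes were lower. Scaling, Jchain and low-count settings and cells picked by plasma markers (added after seeing the data) gave 18 to 20 and 15 to 19 higher. Of all genes, 11.5% to 17.7% were higher in VQ marrow under these settings, and up to 16.4% in lymph node. Without cycle gene UMIs the log2 fold change in VQ marrow turned to -0.747 for Srm (edgeR adjusted p = 0.962) and -0.295 for Nme2 (0.956), and the members' median to -0.295 in VQ marrow and -0.706 in lymph node. The median without VQ marrow replicate 1 or 2 ran from 1.17 to 1.22 in VQ marrow and 1.21 to 1.22 in lymph node; no test is possible there, since no residual degree of freedom is left. Between lymph node and VQ marrow every count was 0 in each fit with a test. The share of cells with a deoxynucleotide enzyme moved with depth, from 23.6%, 84.5%, 76.5% and 85.4% unthinned to 44.8%, 41.3% and 37.8% in the VQ libraries at 500 UMIs. CANNTG in place of CACGTG gave 19 promoters. The median over all genes in VQ marrow was 0.12 to 0.22 (log2) under the other scalings. No paired analysis was possible because the groups compared share fewer than 2 replicate numbers (wild type and lymph node have 1 library each). A single wild-type library of 162471 UMIs limits every fold: members with 1 to 5 wild-type UMIs have wide intervals.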
